A study of Mus musculus with 12 samples.

Results

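Titin, the product of the gene Ttn, was followed exon by exon in 2 hindlimb muscles of mice that flew in space and of mice kept on the ground. Every skipped-exon and mutually exclusive exon event that the splicing tables list under Ttn was taken, together with the Ttn row of the expression table. The gastrocnemius tables listed 309 Ttn events of 2423 events in all, and those of the quadriceps listed 300 of 2416, with 298 Ttn events listed in both muscles. In the expression table Ttn was 1 of 36008 genes.

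The 12 libraries came from 6 female mice, 3 flown for 9 weeks on the International Space Station and 3 ground controls housed in the same hardware at Kennedy Space Center. The mice are given as 30 weeks old, and all of them, flight and ground alike, belonged to the arm of the mission injected with phosphate-buffered saline (PBS) every 2 weeks. Gastrocnemius and quadriceps of the left hind limb were dissected from thawed frozen carcasses, and the sample titles give both muscles of each mouse, so that the 4 groups (ground gastrocnemius, flight gastrocnemius, ground quadriceps, flight quadriceps) held 3 libraries each. The sample labels name the strain C57BL/6 and the methods of the study name BALB/c, and the files do not settle which is right. The splicing tables list 3 samples per group by position without naming the mouse, so that list position 1 of one muscle is not matched to list position 1 of the other.

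Titin is a giant protein that runs from the Z-disc to the M-band of the sarcomere and acts as its molecular spring. The extensible I-band part contains immunoglobulin-like domains and the PEVK segment, rich in proline, glutamate, valine and lysine, and alternative splicing of the exons coding for these segments sets how long, and so how stiff, the spring is. Skeletal muscles express longer titins than the ventricle of the heart, and different skeletal muscles express titins of different lengths.

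Ttn lies on the minus strand at chr2:76703980-76982547 of mm10. Exons were numbered along its longest coding transcript (Ttn-203 in GENCODE), which has 347 exons and a coding length of 105639 bases. Exons 107 to 207 were taken as the PEVK-coding stretch: 101 exons of 27 to 402 bases (median 84), each a multiple of 3 in length, so that skipping any of them keeps the reading frame. Of the 85 exons of this transcript that could be left out in a listed event, 67 lay in the PEVK-coding stretch, 17 before it and 1 after it. Percent spliced in (PSI) is the length-corrected share of junction reads that include an exon. For a skipped-exon event, "exon 135 between 134 and 141" sets the junctions that join exon 135 to exons 134 and 141 against the direct junction of 134 to 141, so its PSI is conditional on those neighbours. For mutually exclusive exons, "exon 135 over 171 between 134 and 192" sets the junctions of exon 135 against those of exon 171. Since 1 transcript can hold junctions of both forms, such a PSI is a ratio of reads at 2 places of the message and not a share of molecules.

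The exons at the junctions that carried the main differences are printed below, from the GRCm38 (mm10) genome, 5′ to 3′ in the direction of transcription. The capitals mark 8 bases at the ends that form the junctions of 171 to 192, 134 to 135, 134 to 141 and 141 to 142, those of exon 202 with its neighbours, and the end of 142 that is joined to 171. The first pair is joined when exons 172 to 191 are left out, and lies at chr2:76831788-76831874 (exon 171) and chr2:76826995-76827078 (exon 192).
exon 171: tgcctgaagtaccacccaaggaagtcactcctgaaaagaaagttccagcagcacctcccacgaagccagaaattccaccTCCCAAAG
exon 192: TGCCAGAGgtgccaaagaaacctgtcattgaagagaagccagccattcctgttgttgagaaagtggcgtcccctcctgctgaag
Exons 134, 135, 141 and 142 bound the stretch in which the muscles differed most. They lie at chr2:76850570-76850644, chr2:76850306-76850380, chr2:76847725-76847808 and chr2:76847388-76847471.
exon 134: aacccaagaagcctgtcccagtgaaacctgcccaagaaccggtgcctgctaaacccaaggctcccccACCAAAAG
exon 135: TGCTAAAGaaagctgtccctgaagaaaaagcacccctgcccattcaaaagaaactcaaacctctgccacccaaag
exon 141: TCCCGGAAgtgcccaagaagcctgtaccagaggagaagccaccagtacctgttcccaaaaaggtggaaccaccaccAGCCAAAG
exon 142: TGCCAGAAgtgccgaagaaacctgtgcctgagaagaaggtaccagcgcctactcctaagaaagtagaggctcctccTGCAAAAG
Exons 201, 202 and 203 hold the skipping of exon 202, the skipped-exon event with the most reads in the PEVK-coding stretch. They lie at chr2:76821116-76821184, chr2:76818736-76818816 and chr2:76817789-76817863.
exon 201: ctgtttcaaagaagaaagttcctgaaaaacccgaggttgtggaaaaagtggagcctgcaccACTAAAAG
exon 202: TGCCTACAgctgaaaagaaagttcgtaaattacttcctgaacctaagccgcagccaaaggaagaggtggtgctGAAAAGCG
exon 203: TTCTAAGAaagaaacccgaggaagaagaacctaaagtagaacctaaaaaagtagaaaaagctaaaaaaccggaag
All of these are PEVK-coding exons, and the codons of proline, glutamate, valine and lysine recur through them.

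Summed over listed events, each sample held 379883 to 665726 junction reads in Ttn events, 48.8% to 58.4% of the sum over all events. A junction named by several events was counted in each of them, so these sums are not numbers of separate reads. List position 3 of the ground quadriceps was the shallowest, with 7 Ttn events at 0 reads, and the other samples had at most 2. In bulk tissue, fewer cells of a type cannot be told apart from less RNA per cell. The 3 samples of a group came from 3 mice, and every test was made over samples.

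The first comparison set gastrocnemius against quadriceps within the ground mice and within the flight mice, which asks whether 2 muscles of different fiber makeup carry different titin messages. The gastrocnemius included more of the PEVK-coding exons. Of 220 Ttn events kept in both muscles, 103 were called between the muscles on the ground (adjusted p below 0.05 in limma and a difference of more than 5 percentage points), 80 with PSI higher in gastrocnemius and 23 with PSI higher in quadriceps. Over all genes 6.46% of 1858 events were called, and over the genes other than Ttn 17 of 1638 were. In flight mice 82 Ttn events were called, 63 higher in gastrocnemius and 19 higher in quadriceps, where 5.65% of events of all genes were called. In both conditions 71 events were called, 56 higher in gastrocnemius and 15 higher in quadriceps.

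The direction was 1-sided among skipped exons. All 61 skipped-exon events called on the ground had PSI higher in gastrocnemius, out of 125 tested. Some of these events share a skipping junction, such as that of 142 to 171 or of 48 to 67, so they are not independent. In flight 46 were called, and 2 of these were higher in quadriceps. The 2 exceptions were exon 129 between 127 and 141, which is thinly covered, and exon 170 between 159 and 171. Calls among mutually exclusive exons went both ways, 19 higher in gastrocnemius and 23 higher in quadriceps of 95 on the ground. By position, 100 of 202 events in the PEVK-coding stretch were called on the ground, 2 of 17 before it, and the 1 event after it. Leaving out any 1 of the 12 samples left 83 to 103 calls on the ground and 61 to 88 in flight.

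With the best covered event of each of the 41 skipped exons, 25 exons were called higher in gastrocnemius on the ground and 0 higher in quadriceps. Here too some exons share a skipping junction, so the 25 calls are not independent. The median PSI over these 41 exons was 63.8% in the ground gastrocnemius and 40.3% in the ground quadriceps. In 22 exons the gastrocnemius was higher by more than 10 percentage points, and in 1, exon 129, it was lower by more than that (not called on the ground). Exon 129 rested on a mean of 13.3 reads in its shallowest group. The plot of inclusion along the gene shows most of the called exons between exon 130 and exon 170, while exons 114 and 115 differed by 3.71 and 0.178 percentage points between the muscles and were not called.

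**Figure D1:**
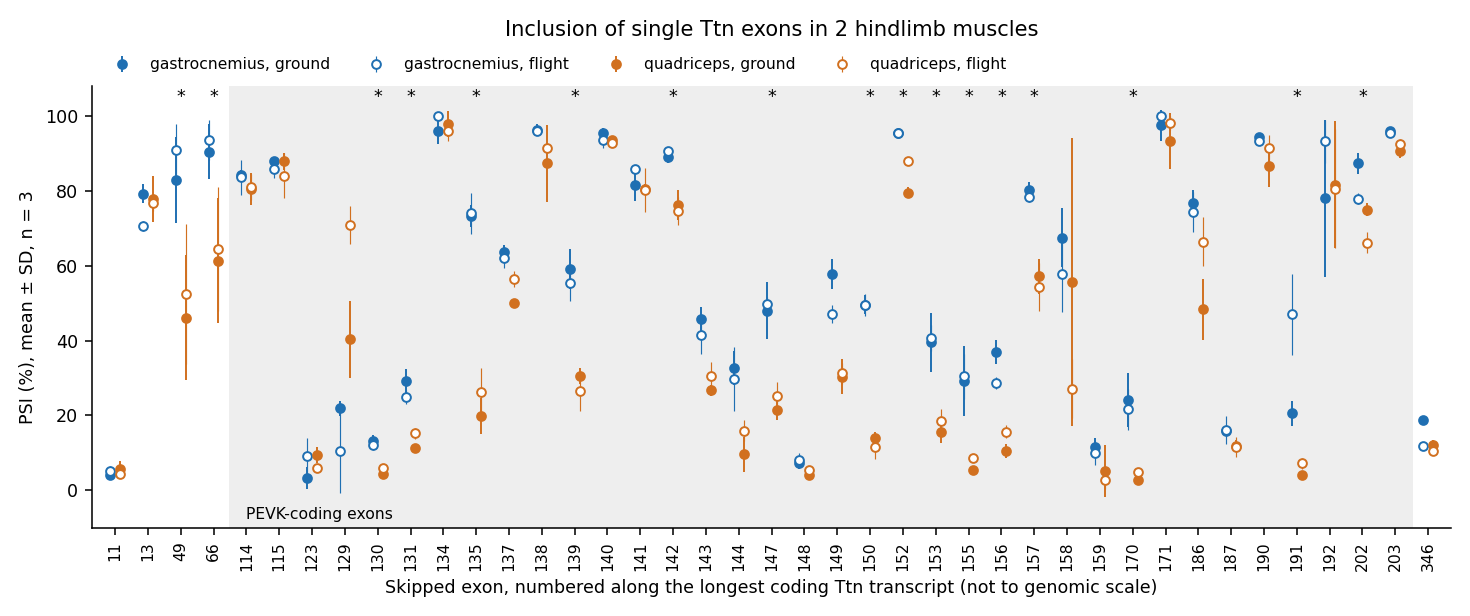
PSI (%) of 41 skipped Ttn exons in order along the transcript, mean ± SD of 3 samples, gastrocnemius in blue and quadriceps in orange, ground filled and flight open; asterisks mark exons called between the muscles on the ground and in flight, and grey marks PEVK-coding exons. The blue points lie above the orange ones for most exons from 130 to 170, while flight and ground points of a muscle lie close together for most exons. The means lie further apart for exon 191 in gastrocnemius and exons 129, 158 and 186 in quadriceps. Exons 129 and 158 rested on means of 13.3 and 11 reads in their shallowest groups. Exon 158 had an SD of 38.5 percentage points in the ground quadriceps.

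Exon 135 (chr2:76850306-76850380, 75 bases) and exon 140, which lie between the same neighbours, differed most. The PSI of exon 135 between 134 and 141 was 73.9%, 70.1% and 76.0% in the ground gastrocnemius and 25.1%, 15.9% and 18.5% in the ground quadriceps. In flight it was 76.7%, 77.6% and 67.7% in gastrocnemius and 32.7%, 19.9% and 26.5% in quadriceps. The lowest gastrocnemius sample was above the highest quadriceps sample in both conditions, and the log2 ratio of inclusion to skipping was higher by 3.50 ± 0.27 (SE) on the ground (adjusted p = 1.13e-06, limma) and by 3.03 in flight (adjusted p = 4.84e-06, limma). Exon 140 between 134 and 141 gave 74.0%, 67.7% and 76.6% against 20.4%, 21.2% and 16.9% on the ground, a difference of 3.48 ± 0.24 on the log2 scale (adjusted p = 4.6e-07, limma). Both exons share the skipping junction of 134 to 141, so these are not independent measurements.

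Downstream, between exons 142 and 171, gastrocnemius again included more of each exon described here. Exon 143 between 142 and 171 was at 65.1%, 43.4% and 49.5% in the ground gastrocnemius and at 9.19%, 9.32% and 9.30% in the ground quadriceps. Flight left it at 54.0%, 53.7% and 39.5% in gastrocnemius and 13.7%, 14.6% and 13.4% in quadriceps. The spread was wide in gastrocnemius and narrow in quadriceps, and the muscles did not overlap. Exon 148 between 134 and 171 was at 55.4%, 54.4% and 51.8% against 14.8%, 19.7% and 13.9% on the ground, and exon 150 between the same neighbours at 52.2%, 49.7% and 47.0% against 12.4%, 15.3% and 14.2%. These events of exons 135, 140, 143, 148 and 150 were called in both conditions whichever single sample was left out. Each is the best covered event of its exon among those called in both conditions, so the calls follow from that choice, and other neighbours gave other values. Exon 143 between 142 and 147, its best covered event, was at 45.9% on average in gastrocnemius and 26.7% in quadriceps on the ground and was not called in flight (adjusted p = 0.0509, limma). Exon 148 between 142 and 171 was at 7.31% against 3.94% on the ground and was called in neither condition.

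Exon 144 between 143 and 171 was included in nearly all gastrocnemius reads, 95.8%, 93.2% and 88.5% on the ground, and in 69.8%, 64.8% and 39.4% of quadriceps reads. In flight the quadriceps samples reached 81.6%, 71.4% and 81.6%, and this flight call was lost when any 1 of 5 of the 12 samples was left out. In its best covered event, between 143 and 147, exon 144 was at 32.7% on average in gastrocnemius and 9.61% in quadriceps on the ground (adjusted p = 0.00171, limma) and was not called in flight (adjusted p = 0.159, limma). Before the PEVK-coding stretch the muscles differed in exons 49 and 66, the outer exons of a stretch that is left out as a whole by the junction of 48 to 67. Exon 49 between 48 and 67 was at 91.5%, 69.8% and 87.6% in the ground gastrocnemius and at 54.1%, 57.3% and 26.99% in the ground quadriceps, with an adjusted p of 0.0299 (limma). Flight samples stood at 94.8%, 82.7% and 94.97% in gastrocnemius and at 31.0%, 62.0% and 64.3% in quadriceps. Single samples of each muscle departed from the others here, and the ground call was lost without ground gastrocnemius list position 1 or 3 or ground quadriceps list position 3 (adjusted p up to 0.154, limma).

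**Figure D2:**
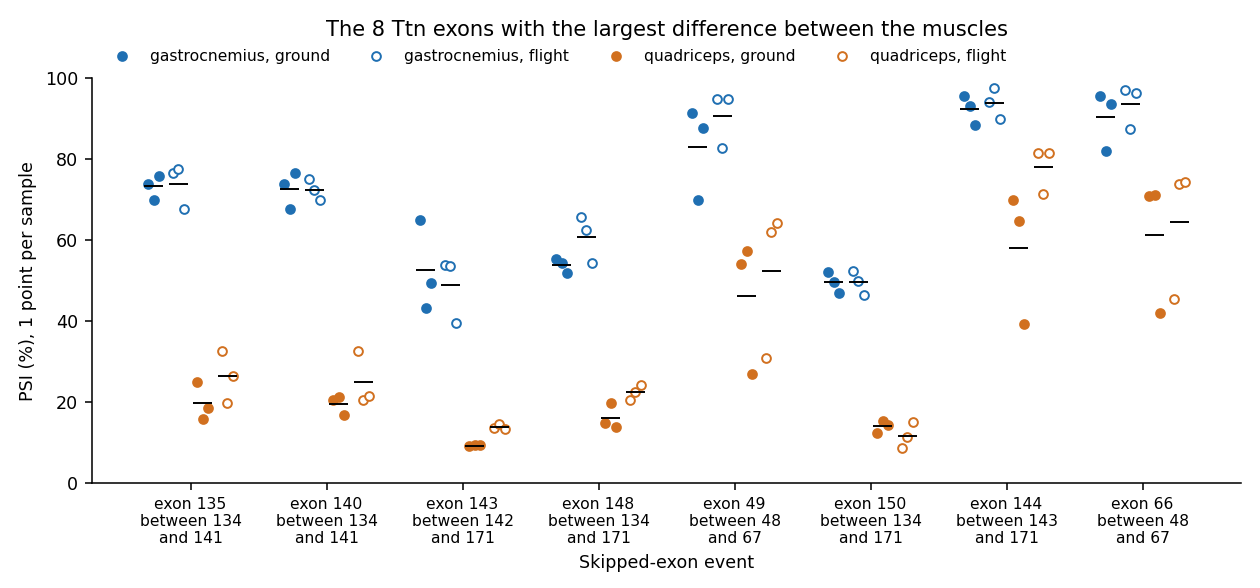
PSI (%) per sample of the 8 skipped Ttn exons with the largest difference between the muscles on the ground, of 22 exons called in both conditions with at least 50 reads in every group; black lines are means of 3 samples, blue is gastrocnemius, orange quadriceps, filled ground and open flight. In each exon every gastrocnemius sample lies above every quadriceps sample of the same condition.

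The other called exons, by the best covered event of each, filled the same stretch at smaller differences. Exons 130 and 131 between 129 and 132, which open it, were at 13.1% and 29.3% on average in the ground gastrocnemius and at 4.37% and 11.3% in the ground quadriceps. Exon 155 between 142 and 171 was at 29.2% against 5.32%, and exon 170 between the same neighbours at 24.1% against 2.66%, so that the quadriceps values were low beside the direct junction. Past exon 171, exon 191 between 171 and 192 was at 20.6% against 4.18% (adjusted p = 3.24e-05, limma) and exon 202 between 201 and 203 at 87.4% against 75.0% (adjusted p = 0.000256, limma). Some exons of the stretch differed little. Exon 141 between 134 and 171 was at 81.7% and 80.5%, and exon 140 between 139 and 141, once exon 139 had been used, at 95.6% and 93.5%, and neither was called.

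The junction reads themselves show which joins made the difference. Of 35 exon-skipping Ttn junctions with at least 50 reads in a muscle, 24 were more frequent in the ground quadriceps per 100000 Ttn junction reads, 14 of them by more than 2-fold, and 6 were less frequent by more than 2-fold. The junctions that leave out more than 5 exons had a median quadriceps over gastrocnemius ratio of 2.29 (19 junctions), and the shorter ones 1.15 (16 junctions). The junction of 134 to 141, which leaves out 6 exons and 663 bases, had 1910, 2602 and 1771 reads in the ground quadriceps against 309, 389 and 262 in the ground gastrocnemius. Per 100000 Ttn junction reads this was 427 ± 35.8 against 59.98 ± 11.3 (SD, n = 3), a ratio of 7.12. The total used for scaling counts a junction once for each Ttn event that names it, so it depends on the events listed. These scaled values are a description and were not tested. The junction of 171 to 192, which leaves out 20 exons and 1605 bases, was 1.64 times as frequent in quadriceps on the ground and 4.17 times in flight.

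The joins into exon 132 from exons 120, 121, 122 and 127 were 9.44, 5.56, 12.2 and 9.57 times as frequent in the ground quadriceps, each a junction that shortens the message. The junction of 142 to 171 leaves out 28 exons and 2721 bases, and had 1819, 2253 and 1029 reads in the ground quadriceps and 401, 795 and 608 in the ground gastrocnemius. Not all long junctions followed this order. The junctions of 156 to 171 and of 171 to 186 were less frequent in the ground quadriceps, at ratios of 0.217 and 0.183. Both use an exon, 156 or 186, whose own inclusion was called higher in the ground gastrocnemius.

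To put the PEVK-coding exons on 1 scale, the length of each of 36 exons was multiplied by its PSI and summed, out of 3531 bases if all were included. The sum was 2179, 2094 and 2085 bases in the ground gastrocnemius and 1624, 1658 and 1611 bases in the ground quadriceps, and the muscles did not overlap. In flight it was 2145, 2118 and 2029 bases in gastrocnemius and 1746, 1703 and 1714 bases in quadriceps. The flight minus ground difference was -21.7 bases in gastrocnemius, where flight and ground samples overlapped, and 90.1 bases in quadriceps, where they did not. That separation depended on the event taken for each exon. With the median PSI over all kept events of an exon, the quadriceps samples overlapped. They were then at 1998, 1917 and 1787 bases on the ground and 2041, 1928 and 2016 bases in flight. The sum takes each PSI within its own neighbours and ignores their order, so it is an index and not a length of any transcript, and no test was run on it.

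The second comparison set flight against ground within each muscle. In gastrocnemius 7 of 253 kept Ttn events were called, 5 with PSI higher and 2 with PSI lower in flight, where 0.378% of 2118 events of all genes were called. All 7 were mutually exclusive exons of the PEVK-coding stretch, and 0 of 154 skipped-exon Ttn events were called by limma, with 11 at an unadjusted p under 0.05. Over all kept events of all genes 201 of 2118 were at that level. The test weighted by reads and the quasi-binomial test both called the skipping of exons 191, 202 and 346, described further on. In 72 of the 253 events flight and ground samples did not overlap, where 16.2% of events of all genes did not. The median flight minus ground difference over the Ttn events was 0.826 percentage points, and over all genes 0.0788.

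A single junction ran through 6 of the 7 called events, that of exon 171 to exon 192. In each of them it supplied at least 94.6% of the reads of the form it belongs to. It had 2143, 2417 and 2328 reads in the ground gastrocnemius and 823, 1207 and 855 in the flight gastrocnemius, a ratio of 0.419. In quadriceps it had 3249, 4259 and 2910 reads on the ground and 3790, 3430 and 3129 in flight, a ratio of 0.993. Flight and ground did not overlap in gastrocnemius and overlapped in quadriceps. Of 28 exon-skipping Ttn junctions with at least 50 reads in the ground gastrocnemius this was the lowest ratio, against a median of 1.31, and of 30 in quadriceps it was the 12th lowest against a median of 1.10. The junction was picked by its ratio in gastrocnemius, so its rank there follows from that choice.

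**Figure D3:**
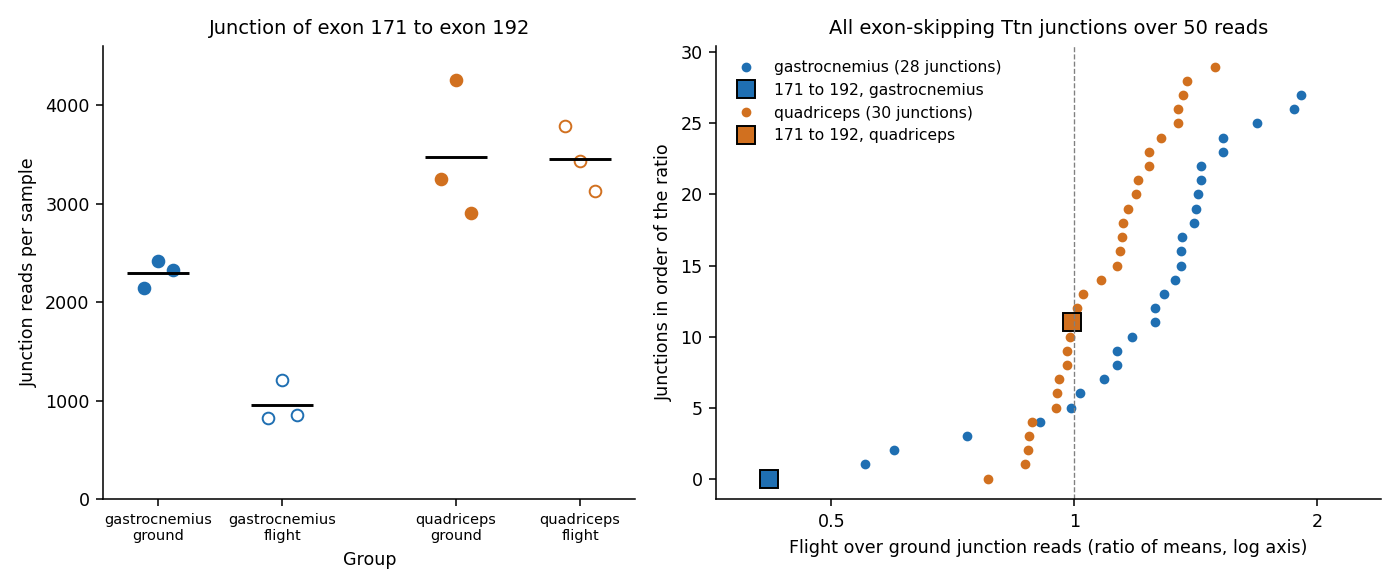
Left, reads of the junction of Ttn exon 171 to exon 192 per sample, with the mean of 3 as a line; right, the flight over ground ratio of mean reads (log axis) for each exon-skipping Ttn junction with at least 50 reads on the ground, in order of the ratio, gastrocnemius in blue and quadriceps in orange. The junction, picked as the lowest of 28 in gastrocnemius, stands there at 0.419 and in quadriceps at 0.993.

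The event with the strongest test was exon 135 over 171 between 134 and 192. Its PSI in gastrocnemius was 44.4%, 41.9% and 40.8% on the ground and 76.1%, 69.7% and 73.7% in flight, a change of 1.90 ± 0.16 (SE) in the log2 ratio (adjusted p = 0.0027, limma). In quadriceps it was 25.02%, 15.5% and 18.7% on the ground and 22.5%, 22.6% and 31.3% in flight (adjusted p = 0.686, limma). The skipping of exon 135 between 134 and 141 did not move with it, at 73.3% on the ground and 74.0% in flight in gastrocnemius. The other 5 called events with this junction were each at an adjusted p of 0.0401 (limma). Exon 127 over 171 between 126 and 192 was at 54.7%, 42.8% and 52.2% on the ground and at 79.4%, 70.4% and 77.6% in flight, and exon 128 over 171 between 127 and 192 at 66.3%, 64.9% and 64.7% and at 87.9%, 80.0% and 88.2%. Exon 192 over 194 between 171 and 200, in which the junction counts for the first-named exon, moved the other way, from 38.6%, 41.8% and 41.0% to 17.0%, 25.2% and 13.6%.

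Exon 141 over 171 between 134 and 192 rose from 12.5%, 13.7% and 9.96% to 33.1%, 25.3% and 40.8%, and exon 153 over 171 between 152 and 192 from 62.8%, 56.7% and 55.8% to 83.6%, 76.1% and 83.0%. In all 6 called events with the junction of 171 to 192, flight position 2 was the flight sample nearest to the ground samples. Of the 10 kept gastrocnemius events that contain the junction, 6 were called and all 10 were at an unadjusted p under 0.05 with no overlap of the groups. These 10 share the reads of a junction picked for its low ratio, so they are not independent observations. Of the 243 events without the junction 1 was called and 39 were at an unadjusted p under 0.05. In quadriceps 0 of 9 events with the junction were called by limma, with 3 at an unadjusted p under 0.05, as were 51 of 262 without it. Exon 135 over 171 stayed called when any 1 of the 6 gastrocnemius samples was left out (adjusted p up to 0.0492, limma). The other 6 each lost their call when ground position 1, 2 or 3 or flight position 1 or 3 was left out, which left 1 Ttn event called, and 8 Ttn events were called without flight position 2.

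**Figure D4:**
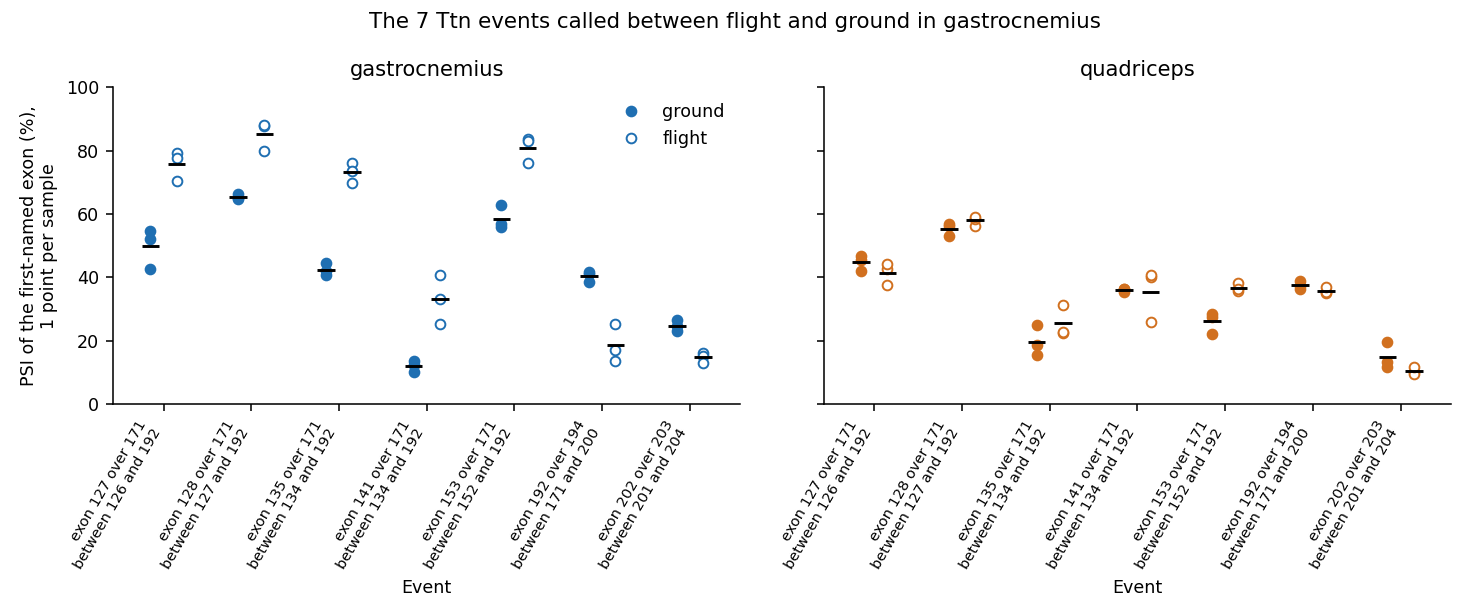
PSI (%) of the first-named exon in the 7 Ttn events called between flight and ground in gastrocnemius (left), and of the same events in quadriceps (right); each point is a sample, filled for ground and open for flight, and lines are means of 3 samples. In gastrocnemius flight and ground samples are apart in all 7 events, while in quadriceps they overlap in most and in exon 153 over 171 they are apart by less.

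The reads around exons 171 and 192 changed their balance in the gastrocnemius. Listed junctions into exon 171 had a mean of 2494 reads on the ground and 3314 in flight, and junctions out of it 3184 and 2049. The ratio of reads into to reads out of exon 171 was thus 0.783 ± 0.0358 on the ground and 1.63 ± 0.266 in flight (SD, n = 3). For exon 192 the order was reversed: reads into it went from 3661 to 2866 and reads out of it from 4299 to 5641. These are raw reads, and the median flight over ground ratio of exon-skipping Ttn junctions in gastrocnemius was 1.31. In quadriceps the ratio for exon 171 was 0.766 on the ground and 0.760 in flight. Only joins that the tables list were counted, either directly as skipping reads or by subtraction from the reads of an event, so sums into and out of an exon need not be equal.

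Among the joins listed, the junction of 171 to 192 took 72.1 ± 2.62% of the reads out of exon 171 in the ground gastrocnemius and 46.7 ± 7.39% in flight, and 90.2% and 86.7% in quadriceps. Its share of the reads into exon 192 went from 62.7% to 34.1% in gastrocnemius and from 88.1% to 82.9% in quadriceps. The junction of 191 to 192 had 1374, 1058 and 1128 reads in the ground gastrocnemius and 2206, 1332 and 1585 in flight. Its ratio was 1.44, beside the median of 1.31 over exon-skipping Ttn junctions in this muscle. Exon 191 between 171 and 192 was at 24.3%, 18.0% and 19.5% on the ground and 57.3%, 35.6% and 48.1% in flight. Flight and ground samples did not overlap, but the adjusted p of 0.0638 (limma) missed the threshold. In quadriceps exon 191 was at 4.67%, 4.73% and 3.15% on the ground and 8.92%, 6.09% and 6.43% in flight (adjusted p = 0.538, limma). The inclusion reads of exon 191 come from its join to exon 192, and its join to exon 171 had 0 reads on the ground in gastrocnemius, so this PSI too carries the change of the junction of 171 to 192.

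Exon 202 stood apart from that junction. Exon 202 over 203 between 201 and 204 was at 26.5%, 24.8% and 23.1% in the ground gastrocnemius and at 16.0%, 15.2% and 12.9% in flight, a change of -0.94 ± 0.14 (SE) on the log2 scale (adjusted p = 0.0401, limma). It was not called when any 1 sample was left out (adjusted p 0.0666 to 0.195, limma). Exon 202 between 201 and 203 was lower in flight in both muscles, at 90.3%, 87.0% and 84.8% against 78.4%, 79.2% and 76.2% in gastrocnemius and at 76.7%, 73.2% and 75.1% against 69.2%, 63.7% and 65.5% in quadriceps. Flight and ground did not overlap in either muscle, with adjusted p of 0.0787 and 0.538 (limma), and the test weighted by reads called the gastrocnemius event (adjusted p = 0.0306). The junction of 201 to 203, which leaves exon 202 out, had 336, 453 and 526 reads in the ground gastrocnemius and 848, 620 and 1042 in flight.

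Exon 346 (chr2:76705670-76705972, 303 bases) is the penultimate exon and codes for a part of the M-band end of titin. Exon 346 between 345 and 347 was at 19.0%, 19.0% and 18.6% in the ground gastrocnemius and at 12.4%, 11.3% and 11.7% in flight (adjusted p = 0.069, limma). In quadriceps it was at 13.4%, 11.9% and 10.9% on the ground and 11.6%, 10.1% and 9.60% in flight (adjusted p = 0.786, limma). Flight and ground did not overlap in gastrocnemius, and the test weighted by reads and the quasi-binomial test gave adjusted p of 0.00344 and 0.00709. Between the muscles on the ground it was higher in gastrocnemius (adjusted p = 0.00419, limma), and in flight the adjusted p was 0.696 (limma).

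Before the PEVK-coding stretch, 18 gastrocnemius events were kept and none was called by limma, by the test weighted by reads or by the quasi-binomial test, with 8 at an unadjusted p under 0.05. Over all genes 201 of 2118 gastrocnemius events were at that level. Flight and ground did not overlap in 12 of the 18, beside the 16.2% of events of all genes, and in 2 of the 17 kept in quadriceps, which is 11.8% beside 12.8% over all genes. Exon 13 between 12 and 14 was at 77.2%, 82.2% and 78.5% in the ground gastrocnemius and at 69.6%, 70.2% and 72.2% in flight (adjusted p = 0.438, limma), and in quadriceps at 80.7%, 82.1% and 70.9% and at 75.4%, 75.7% and 79.5%. The junction of 48 to 67, which leaves out 18 exons and 5058 bases, had 89, 455 and 131 reads in the ground gastrocnemius and 71, 232 and 69 in flight. In quadriceps it had 700, 803 and 1558 reads on the ground and 1922, 491 and 514 in flight. A single sample of each group was far above the other 2, so flight and ground could not be told apart there, and quadriceps was above gastrocnemius in every sample.

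In quadriceps 0 of 271 kept Ttn events were called by limma between flight and ground, where 0.0% of 2062 events of all genes were. At an unadjusted p under 0.05 there were 54 Ttn events, and 160 of the 2062 events of all genes. The lowest adjusted p of a Ttn event was 0.538 (limma). The test weighted by reads called 4 Ttn events, and the quasi-binomial test called 1. In 66 of the 271 events flight and ground did not overlap, where 12.8% of events of all genes did not. Among events with at least 50 reads the largest difference was in exon 186 between 171 and 187, at 47.3%, 57.0% and 40.7% on the ground and 70.5%, 70.0% and 58.8% in flight (adjusted p = 0.636, limma). Exon 152 between 142 and 153 was at 79.2%, 81.1% and 78.3% on the ground and 88.5%, 88.4% and 86.8% in flight (adjusted p = 0.538, limma), and in gastrocnemius at 95.6% and 95.5% on average. Exon 12 over 13 between 10 and 14, in the part of the gene before the PEVK-coding stretch, was at 60.4%, 52.2% and 51.6% on the ground and 64.0%, 65.6% and 62.0% in flight (adjusted p = 0.689, limma).

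The difference between the flight effects of the muscles was tested itself. By limma 2 of 220 Ttn events were called, where 0.161% of events of all genes were. Exon 127 over 171 between 126 and 192 changed by 29.2 percentage points more in gastrocnemius than in quadriceps (1.86 ± 0.29 on the log2 scale, SE; adjusted p = 0.0373), and exon 128 over 171 between 127 and 192 by 17.4 percentage points more (1.52 ± 0.27; adjusted p = 0.0454). Their calls held in 2 and in 1 of 12 fits that each left out 1 sample. For exon 135 over 171 the adjusted p of the difference was 0.185 (limma), so its flight effect was not shown to differ between the muscles. Without any 1 of 10 of the 12 samples no Ttn event was called, without ground gastrocnemius position 1 there was 1, and without flight gastrocnemius position 2 there were 5.

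Some PEVK-coding exons are near copies of each other, and 33 exons of the transcript share a run of at least 20 bases with another. Reads of such exons can be placed on the wrong copy or be lost. Of the 253 gastrocnemius events, 69 name such an exon, and all 7 calls between flight and ground were among the other 184. Between the muscles on the ground, 21 of 55 such events and 82 of the other 165 were called. Of the exons named above, exons 10, 13, 170, 186 and 187 are among those that share such a run. Among the exons left out by the junction of 171 to 192, exons 173 to 180, 182 to 187 and 190 share one as well. Whether lost or misplaced reads of these exons affected the calls with that junction was not tested.

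The level of Ttn was read as TPM, a transcript abundance scaled to transcript length and to the library total. Ttn ranked between the 24th and 28th most abundant gene in each library. It stood at 8091, 7264 and 7338 TPM in the ground gastrocnemius and at 8875, 8951 and 9219 TPM in flight. In quadriceps it stood at 7066, 7710 and 7731 TPM on the ground and at 8431, 8299 and 8447 TPM in flight. Flight libraries were above ground libraries in both muscles with no overlap. How many of all genes had no overlap was not counted. The change was 0.25 ± 0.07 (SE) on the scale of log2(TPM + 1) in gastrocnemius (adjusted p = 0.191, limma) and 0.16 ± 0.07 in quadriceps (adjusted p = 0.452, limma), where 0.229% and 0.0286% of 10481 genes were called at an adjusted p below 0.05 and more than 1.5-fold. Between the muscles the level differed by 0.01 on the ground (adjusted p = 0.928, limma) and by 0.10 in flight (adjusted p = 0.355, limma), on a scale on which the median of all genes was at -0.12 and -0.11. Ttn was thus not called in any comparison of level, and 3.2% and 3.34% of genes were called between the muscles.

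**Figure D5:**
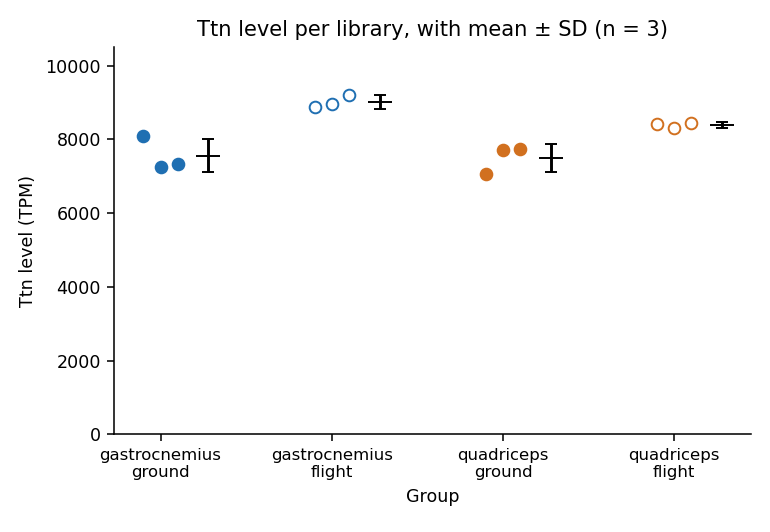
Ttn level (TPM) in each of the 12 libraries, with the mean ± SD of 3 beside the points, gastrocnemius in blue, quadriceps in orange, ground filled and flight open. Flight libraries lie above ground libraries in each muscle, from 7264 to 8091 against 8875 to 9219 in gastrocnemius and from 7066 to 7731 against 8299 to 8447 in quadriceps.

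Proteins known to bind titin pre-mRNA or to steer muscle splicing were read from the same table. Of 14 such genes 0 were called by limma in any of the 4 comparisons, with 5 at an unadjusted p under 0.05 between flight and ground in gastrocnemius and 2 in quadriceps. Over all genes 1580 and 1136 of 10481 were at that level. Rbm20, the repressor of titin exons best known from the heart, was at 34.0, 34.4 and 31.8 TPM in the ground gastrocnemius and at 32.8, 38.8 and 30.6 TPM in flight. In quadriceps Rbm20 was at 34.4, 31.3 and 32.1 TPM on the ground and at 36.7, 42.3 and 38.7 TPM in flight (0.26 ± 0.09 on the log2 scale, SE; adjusted p = 0.397, limma). Rbfox2, which binds next to regulated muscle exons, had the largest change of the 14 in both muscles, in gastrocnemius from 63.9, 60.4 and 53.9 TPM on the ground to 86.2, 85.5 and 92.0 TPM in flight (0.56 ± 0.09 on the log2 scale, SE; adjusted p = 0.0774, limma). In quadriceps Rbfox2 was at 51.6, 70.7 and 59.8 TPM on the ground and at 69.97, 68.8 and 83.9 TPM in flight (0.29 ± 0.13, SE; adjusted p = 0.491, limma). Flight and ground libraries of Rbfox2 were apart in gastrocnemius and overlapped in quadriceps, while those of Rbm20 overlapped in gastrocnemius and were apart in quadriceps. The share of all genes apart in this way was not counted. The median change of the 14 genes was 0.09 in gastrocnemius and 0.13 in quadriceps, beside 0.02 and 0.01 over all genes. Between the muscles Celf2, a splicing factor of the CELF family, was lower in the ground gastrocnemius by 0.38 (adjusted p = 0.0417, limma), which is less than 1.5-fold.

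Of 26 genes for proteins that bind titin or sit beside it in the sarcomere, 25 were above 5 TPM in a library (Fhl2 was not). Between flight and ground in gastrocnemius 1 was called, where 0.229% of all tested genes were. Myl2, a regulatory light chain of slow and cardiac myosin, fell from 566, 432 and 438 TPM to 213, 158 and 198 TPM (-1.33 ± 0.14, SE; adjusted p = 0.0361, limma). In quadriceps 0 were called by limma, with 6 at an unadjusted p under 0.05, where 1136 of 10481 genes were. Tcap, which caps titin at the Z-disc, was at 2391, 2371 and 2103 TPM on the ground and 1818, 2580 and 2353 TPM in flight in gastrocnemius. Between the muscles on the ground 3 were called, where 3.2% of all tested genes were. Fhl1, a LIM protein that binds titin's N2B region, was higher in gastrocnemius by 0.95 on the log2 scale (adjusted p = 0.00312, limma). Actn2, the Z-disc alpha-actinin, was higher by 0.63, and Nbr1, an autophagy receptor that binds the titin kinase, was lower (-0.84). In flight Fhl1 was called higher by 0.82 and Ankrd23, an ankyrin repeat protein of the I-band, was called lower (-0.64). Over all tested genes 3.34% were called there.

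Fiber-type genes were read in the same libraries. The summed level of 6 slow-fiber genes was 1571 to 1924 TPM in the ground gastrocnemius and 975 to 1179 TPM in flight. There all 6 were lower and Myl2 and Myl3 were called, where 0.229% of all tested genes were. In quadriceps the sum was 793 to 1990 and 1078 to 1531 TPM, with none at an unadjusted p under 0.05 and the lowest adjusted p at 0.566 (limma). Between the muscles none of the 6 slow-fiber genes passed the test (lowest adjusted p = 0.244 on the ground, limma). The summed level of 5 fast-fiber genes was 50321 to 51139 TPM in the ground gastrocnemius and 56444 to 58265 TPM in flight, and 69055 to 74347 and 78026 to 81062 TPM in quadriceps. None of the 5 was called by limma between flight and ground, with 4 at an unadjusted p under 0.05 in gastrocnemius and 1 in quadriceps. Over all genes 1580 and 1136 of 10481 were at that level. Between the muscles on the ground 4 had an adjusted p below 0.05 (limma), each with the lower level in gastrocnemius. The other gene, Myh1, was higher in gastrocnemius on the ground without reaching that threshold. In flight all 5 had an adjusted p below 0.05 (limma), 4 lower and 1 higher in gastrocnemius. None of the 5 was called between the muscles in either condition, since none with such an adjusted p reached 1.5-fold. Over all tested genes 3.2% were called on the ground and 3.34% in flight. How many of all genes passed the adjusted p alone was not counted. The part of fiber makeup in the differences of Ttn exons between muscles and conditions was not tested.

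Some markers of other tissue differed between the muscles as well. The 4 general skeletal muscle genes summed to 41363 to 45529 TPM in the ground gastrocnemius and to 49196 to 56596 TPM in the ground quadriceps, so the markers of the labelled tissue were abundant in both. Of 3 adipocyte genes Adipoq was called lower in the ground gastrocnemius, in a contrast in which 3.2% of all tested genes were called. The 2 smooth muscle genes were higher in gastrocnemius at an adjusted p below 0.05 (limma) without reaching 1.5-fold. The share of all genes passing the adjusted p alone was not counted. Neither the 2 blood genes nor the 1 tested heart-type gene passed the test. Between flight and ground in quadriceps all 3 adipocyte genes were lower in flight (-1.09 to -1.07 on the log2 scale). Each was at an unadjusted p under 0.05, where 1136 of 10481 genes were, and the lowest adjusted p of the 3 was 0.368 (limma). Their sum was 66.1 to 159.6 TPM on the ground and 35.4 to 63.0 TPM in flight. In gastrocnemius their sum was 33.9 to 75.6 TPM on the ground and 28.8 to 67.1 TPM in flight. No gene of these lists was at 0 in every library. Their part in the results on Ttn was not tested.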

How the data were processed

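Poly-A selected, strand-specific single-end 50-base reads were aligned by the authors to mm10 with STAR 2.7.1a. The deposited splicing tables come from rMATS-turbo and hold whole-number junction read counts of inclusion and skipping for each event and sample, with effective lengths, from which PSI was recomputed (98 and 49 for skipped exons). The deposited expression table holds TPM from kallisto 0.46.0. Its rows sum to 923295 to 966638 TPM. The tables' p-value, FDR and inclusion-difference columns hold the authors' own comparisons and were not used.

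Events with a mean over 10 junction reads in both groups and a PSI not at or below 5% or at or above 95% throughout were kept. The log2 ratio of inclusion to skipping (pseudocount 0.5) entered limma (version 3.58.1, R 4.3.3), and p-values were adjusted by Benjamini and Hochberg's method over all kept events of all genes, within 1 muscle for flight against ground and in 1 fit of 12 samples, without a block since list positions name no mouse, for muscle contrasts. Calls needed an adjusted p below 0.05 and over 5 percentage points. TPM was tested as log2(TPM + 1) over genes above 5 TPM in at least 1 library, with a 1.5-fold threshold and with the mouse as a block for muscle contrasts. The mouse pairs the muscles by the sample titles (correlations of deviations -0.119 to 0.333). All tests were two-sided. The tests of flight against ground were checked on simulated data. The muscle contrasts, the test of the difference of flight effects and the mouse block were not.

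Named events were, per muscle, the called ones, the 8 with the largest difference at 50 or more reads (1 per exon), the best covered skipped exon of each region, and exon 346. The 8 exons between muscles, and all junction values, were chosen after values were seen. The gene, its events and the gene lists were chosen with earlier results of these data known. The PEVK-coding stretch was bounded by exons whose in-frame translation is at least 50% proline, glutamate, valine and lysine. Alternatives were other pseudocounts, filters, weights, sample sets and a quasi-binomial test. The result of 1 marker list is not reported here.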

Additional observations from a re-analysis of the deposited data

Results flagged for a closer look

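In 2 Ttn events the flight effect differed between gastrocnemius and quadriceps by a test of the difference itself in limma, 1.86 on the log2 scale for exon 127 over 171 between 126 and 192 and 1.52 for exon 128 over 171 between 127 and 192. In gastrocnemius both rose in flight. In quadriceps the first was at 46.8%, 45.4% and 42.1% on the ground and 42.8%, 44.1% and 37.7% in flight, and the second at 56.2%, 56.8% and 53.0% and at 56.3%, 58.5% and 59.1%. Both contain the junction of exon 171 to exon 192, so they are not independent of each other.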

How the results depend on the processing

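Of the 7 Ttn events called between flight and ground in gastrocnemius, the count became 11 when all 12 samples were fitted together, 13 when skipped and mutually exclusive exons were fitted separately, 20 with weights by reads and 18 with a quasi-binomial test with moderated dispersion (chosen after seeing the data), and 1 to 8 when 1 sample was left out. In quadriceps the count of 0 became 4 with weights and 1 with the quasi-binomial test, and stayed at 0 without any 1 sample. The 2 events whose flight effect differed between muscles became 6 with weights, 6 with the quasi-binomial test and 0 to 5 with 1 sample left out. The muscle contrasts gave 100 to 104 Ttn calls on the ground and 82 to 93 in flight under the alternatives. The cause of these changes was not tested.

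The Ttn level kept its direction under all alternatives between flight and ground, at 0.22 to 0.25 in gastrocnemius (adjusted p 0.0801 to 0.565, limma) and 0.14 to 0.16 in quadriceps (0.264 to 0.758) with all samples, and at 0.23 to 0.30 and 0.12 to 0.19 with 1 sample left out. Between the muscles on the ground it turned to -0.0807 without mouse M02 (range -0.0807 to 0.0600 with 1 mouse left out, adjusted p 0.487 or more, limma). With the replicate block the flight effects on level had adjusted p of 0.375 in gastrocnemius and 0.667 in quadriceps (limma). No paired analysis was possible for the splicing events because their list positions name no mouse. Flight and ground replicate numbers name different mice and pair nothing (correlations -0.18 to 0.111). The index of PEVK inclusion changed by -24.6 to -9.29 bases in gastrocnemius and 90.1 to 93.9 in quadriceps under other choices of event, and by -45.6 to 12.6 and 77.7 to 104 with 1 sample left out. With the median PSI over all kept events of each exon, flight and ground samples of the quadriceps overlapped in this index. The planned edgeR test of inclusion and skipping counts was not run, and the quasi-binomial test took its place.

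With 3 samples per group an exact permutation test cannot go below p = 0.1, so single events have no test outside the fit across events. Depth limits the quadriceps events that name exons included rarely, and list position 3 of the ground quadriceps most of all. Joins not listed by the tables were not counted. Reads of 50 bases cannot show which distant exons share a transcript.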

Other observations

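Genes whose level followed Ttn most closely over the 12 libraries, once group means were removed, were Papss1 (Pearson r 0.865), Gm48260 (0.852), Dnmt3a (0.845), Gm11628 (0.844) and Tbc1d5 (0.843), out of 9090 genes with a mean above 5 TPM. The libraries share their depth and scaling, and these values are a description without a test.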
